A study of Homo sapiens with 6 samples.

Results

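The genes of the cytoplasmic ribosomal proteins were examined in MCF10A cells, an immortal human line of mammary epithelium that does not form tumours, after stable expression of a short hairpin RNA against FRY. The members were the genes whose platform symbol is RPL or RPS with a number and at most 1 letter A, L, X or Y, or is RPLP0, RPLP1, RPLP2 or RPSA. They had to be named alone by a probe set, and each was represented by its probe set with the highest mean. This gave 56 genes of 19775 tested, 35 of the large (60S) and 21 of the small (40S) subunit, measured by 117 probe sets. In RefSeq, 81 protein-coding genes fit the symbol rule, and the other 25 had no probe set naming them alone and were not analysed here. The FRY protein associates with microtubules and is a partner of the NDR kinases. The shFRY group was 3 RNA samples of MCF10A cells transfected with the FRY-targeting shRNA, and the control group was 3 RNA samples of MCF10A cells transfected with a non-targeting shRNA. Each group was 1 puromycin-selected clone whose samples differed in passage number, so p-values measure only the spread between samples of 2 clones, and clone and shRNA cannot be told apart. All cells grew in mammary epithelial medium with EGF, insulin, hydrocortisone and pituitary extract and were at 70% confluence.

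Each cytoplasmic ribosome holds 1 set of ribosomal proteins around its ribosomal RNAs. The 40S subunit binds and decodes the mRNA, and the 60S subunit forms the peptide bond and leads the new chain out through a tunnel. The genes are among the most strongly expressed of any growing cell. Most of their mRNAs begin with a C followed by a run of pyrimidines, the 5′ terminal oligopyrimidine (TOP) motif, through which mTORC1 and LARP1 regulate their translation, and most of the genes have many processed pseudogenes.

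The start sites show this shared feature, which the choice of members did not use. The windows below hold 15 bases before and 15 bases from the RefSeq start (GRCh38.p14), 5′ to 3′ on the gene's strand. The first 4 are the genes that passed the test, and the others are members described below. Capitals mark the run of pyrimidines that begins at the annotated first base.
RPS27L: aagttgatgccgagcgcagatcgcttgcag
RPS15: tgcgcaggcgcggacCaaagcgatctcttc
RPL35: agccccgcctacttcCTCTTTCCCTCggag
RPL18: accccagcccgttctCTCTTTCCggacctg
RPLP2: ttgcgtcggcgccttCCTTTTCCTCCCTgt
RPS6: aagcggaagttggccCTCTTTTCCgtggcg
RPS12: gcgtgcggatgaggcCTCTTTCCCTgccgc
RPS23: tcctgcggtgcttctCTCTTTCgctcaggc

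These windows lie at chr15:63157463-63157492 (minus strand, RPS27L), chr19:1438381-1438410 (plus, RPS15), chr9:124861943-124861972 (minus, RPL35) and chr19:48619164-48619193 (minus, RPL18). The others lie at chr11:809952-809981 (plus, RPLP2), chr9:19380222-19380251 (minus, RPS6), chr6:132814554-132814583 (plus, RPS12) and chr5:82278340-82278369 (minus, RPS23). A TOP start was counted where the annotated first base is C and begins a run of at least 5 pyrimidines, read on the gene's strand only. Of the 48 members with a RefSeq promoter, 33 (68.8%) had one, with a median run of 7 pyrimidines. Of all RefSeq promoters in the set used here, 4.04% had one, and among the promoters of 67 mitochondrial ribosomal protein genes, whose products serve the separate ribosome of mitochondria, 5.97% did. The count says only which letters stand at the annotated start, and a gene whose start is annotated a few bases away from the one used is missed: RPS15 has a pyrimidine run inside the window but not at the annotated first base.

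The 6 arrays had medians of 3.02 to 3.06 log2 units over all probe sets. Across probe sets, r was 0.992 to 0.995 within a group and 0.972 to 0.978 between shFRY and control samples. Of the defining markers of other cell types that were measured, 0 were higher in shFRY samples. Those lower were 2 of 6 of fibroblasts (LUM, -3.94, and DCN, -2.79), 1 of 3 of immune cells (PTPRC, -1.06) and 1 of 4 of endothelium (KDR, -2.45). Of all genes, 16% were lower and 13.7% higher. PTPRC averaged 2.13 in shFRY samples and 3.19 in control samples, close to or below the array median. The part of these markers in the results was not tested. Of 5 epithelial markers measured of 7 listed, 2 were higher and 1 lower: KRT14 rose by 2.92 and CDH1 by 0.37, and KRT18 fell by 0.37. KRT5 and EPCAM averaged 11.56 and 10.07 in shFRY samples, against 11.47 and 10.08 in control samples, and did not pass. FRY was lower in shFRY samples at each of its 4 probe sets, by 0.32 to 0.75 on the log2 scale. Their control means were only 3.11 to 5.18, and near the array median a change is measured poorly. Just 1 passed the threshold (204072_s_at, -0.75, limma adjusted p = 0.0223). It had 2.88, 3.31 and 3.14 in shFRY samples, against 4.23, 3.55 and 3.81 in control samples. That call was lost without shFRY sample 1 or 3 or control sample 1 or 3, with adjusted p-values of 0.0712, 0.0502, 0.0650 and 0.0539, and the values without 1 sample were -0.91 to -0.57. RNA length was followed by the 3′ minus 5′ difference of the beta-actin controls, which was 2.88, 2.89 and 2.84 in shFRY samples, against 2.33, 2.52 and 2.71 in control samples (exact permutation p = 0.1, the smallest for 3 against 3). It moved with the group and so with every difference described here, and its part in them was not tested. The same difference of the GAPDH controls was -0.07 ± 0.03 in shFRY samples and -0.09 ± 0.01 in control samples (SD, n = 3 each; exact permutation p = 0.4).

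The ribosomal protein genes differed little between shFRY and control cells. Their median signal was 12.04, 12.03 and 12.09 log2 units in the shFRY samples, against 12.08, 12.03 and 11.99 in the control samples. The sample medians of the groups overlapped. Probe sets of 51 of the 56 genes were brighter than 97% of all probe sets on the array. Since each array was normalized to a common distribution, a change in the ribosomal share of total RNA shared with most bright genes could not be seen.

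In limma with Benjamini-Hochberg adjustment over all genes, 4 of the 56 genes (7.14%) were lower in shFRY samples at an adjusted p of 0.05 and 0 were higher, whereas 29.8% of all genes passed, 13.7% higher and 16% lower. The 4 were RPS27L and RPS15 of the 40S subunit and RPL35 and RPL18 of the 60S subunit. At an unadjusted p of 0.05, 5 were lower and 0 higher, against 7850 of the 19775 genes, 3773 higher and 4077 lower. In a fit whose variance follows the signal level (eBayes with trend and robust options), 13 members passed, 9 lower and 4 higher, or 23.2% against 32.5% of all genes. The median standard error of a member was 0.09 in the first fit and 0.05 in that one, so the count depends on how the small spread of bright genes is treated. With probe sets ending in _x_at or _s_at left out, 34 members could be tested, and 8 of them passed, 6 lower and 2 higher, or 23.5% against 25.7% of all genes.

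The log2 differences themselves do not rest on how the variance is modelled. The confidence intervals and calls below, taken from the first fit, do. The median log2 difference, shFRY minus control, was -0.00 over the members and 0.03 over all genes, with 27 members above and 29 below 0. The median absolute difference was 0.08 in the members and 0.23 over all genes. Of the 56 members, 52 (92.9%) lay within 0.25 log2 units of 0, against 52.9% of all genes. The 95% confidence interval lay within a 2-fold change for all 56 members and within a 1.5-fold change for 53 of them (94.6%), against 84.3% and 55.3% of all genes. These counts include RPL3L, RPL10L and RPL36A, whose signal was close to or below the array median, where a change is measured poorly. No member was called with a change of at least 2-fold, against 7.5% of all genes. The 3 shFRY samples lay wholly above the 3 control samples for 10 members and wholly below for 12, together 39.3% of members, near the 44.2% of all genes.

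Bright probe sets vary less between arrays, so the members were also set beside other bright genes. This limit on brightness was chosen after the data were seen. It sets a lowest level only, and levels above it were not matched between members and other genes. Across the 56 members, the absolute difference and the mean level had a Spearman correlation of -0.29. Of the 43 members with a mean over 11 log2 units, 2 (4.65%) passed, both lower. Of the 278 other genes with such a mean, 84 (30.2%) passed, 35 higher and 49 lower. The median absolute difference was 0.07 in these members and 0.17 in the other bright genes, and 95.3% and 60.4% of them lay within 0.25 log2 units of 0. The median SD within a group was similar, at 0.04 in both groups for the members and 0.06 in both groups for the other bright genes.

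**Figure D1:**
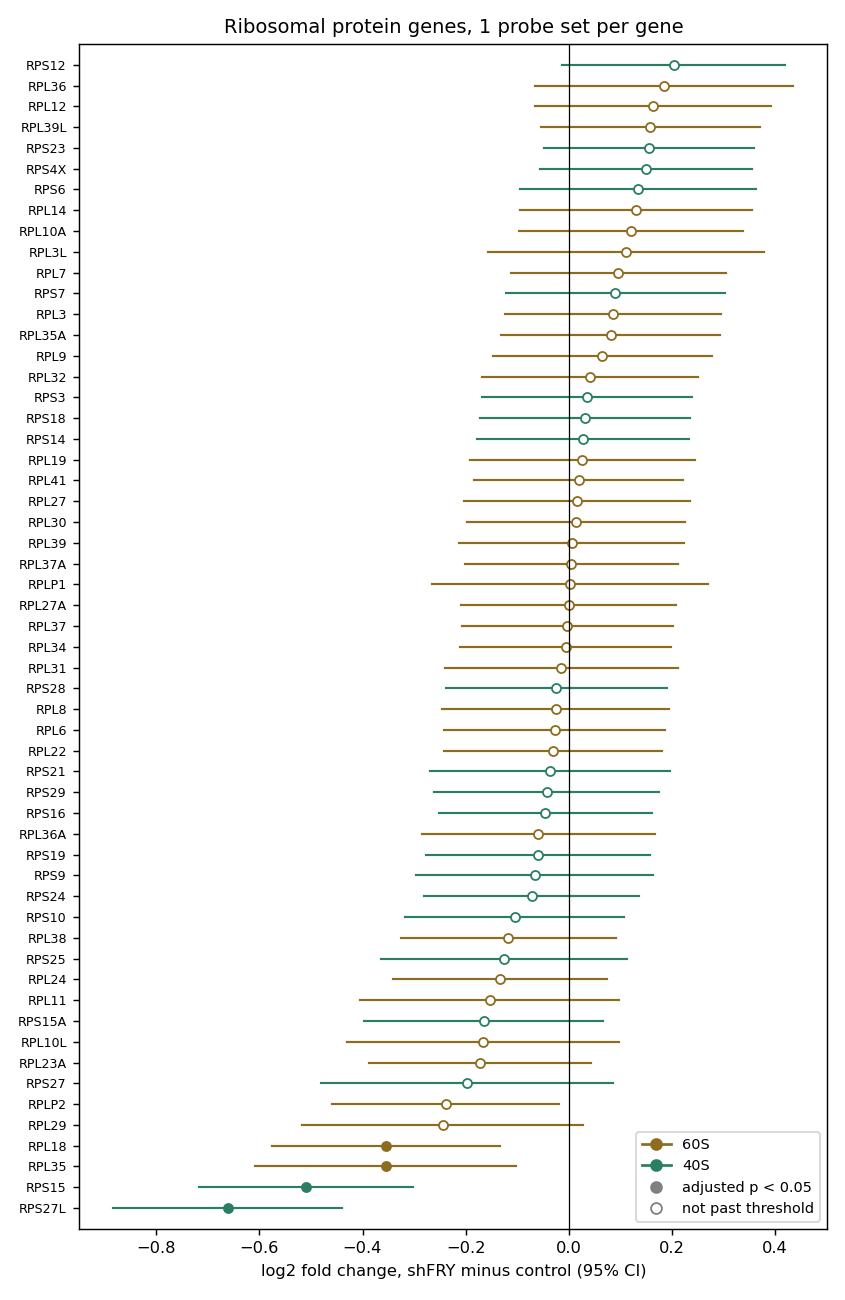
Log2 fold change, shFRY minus control, of the 56 ribosomal protein genes in order of size, with 95% confidence intervals from limma; filled points passed an adjusted p of 0.05. The points run from -0.66 for RPS27L to 0.20 for RPS12, and only RPS27L, RPS15, RPL35 and RPL18 are filled.

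Among the 21 genes of the 40S subunit, 2 were lower and 0 higher. RPS27L, a paralog of RPS27 that p53 induces in human cells, had the largest fall of any member. Its log2 signal was 10.15, 9.98 and 10.12 in shFRY samples, against 10.75, 10.77 and 10.71 in control samples. Every shFRY value was below every control value, by far more than the spread within either group, and the log2 fold change was -0.66 (SE 0.10, limma adjusted p = 0.00139). Its other 2 probe sets were also called lower in the fit over all probe sets, at -0.72 and -1.24. The call held without each sample in turn, with adjusted p-values from 0.00357 to 0.00806.

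RPS15 encodes a protein of the 40S head whose tail reaches the decoding site, and it acts late in 40S maturation. It had 11.30, 11.21 and 11.30 in shFRY samples, against 11.78, 11.77 and 11.80 in control samples. The control values were nearly equal, and the groups were far apart. The log2 fold change was -0.51 (SE 0.09, limma adjusted p = 0.00368), and the call held without each sample in turn, with adjusted p-values from 0.00811 to 0.0181. RPS15 has 1 other probe set, which is dim: 3.32, 3.45 and 3.86 in shFRY samples and 3.51, 3.60 and 3.53 in control samples, a difference of -0.01. The fall of RPS15 thus rests on 1 probe set.

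The other proteins of the mRNA entry and decoding region that were measured moved less. RPS23, part of the decoding centre, had 12.67, 12.66 and 12.62 in shFRY samples, against 12.51, 12.49 and 12.49 in control samples. Its groups did not overlap, yet the difference of 0.16 did not pass (limma adjusted p = 0.234), except in the fit whose variance follows the level (0.00821). RPS3, which lines the mRNA entry channel, differed by 0.04. Of the 3 genes measured of the 4 on this list, 1 was lower and 0 were higher.

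RPS12, a protein of the 40S beak, had the largest positive difference of the members, with 12.37, 12.42 and 12.41 in shFRY samples, against 12.29, 12.17 and 12.14 in control samples. The groups did not overlap, and the difference of 0.20 did not pass (limma adjusted p = 0.148). It passed in the fit whose variance follows the level, where RPS4X (0.15), RPS23 and RPL12 (0.16) were the other members called higher.

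**Figure D2:**
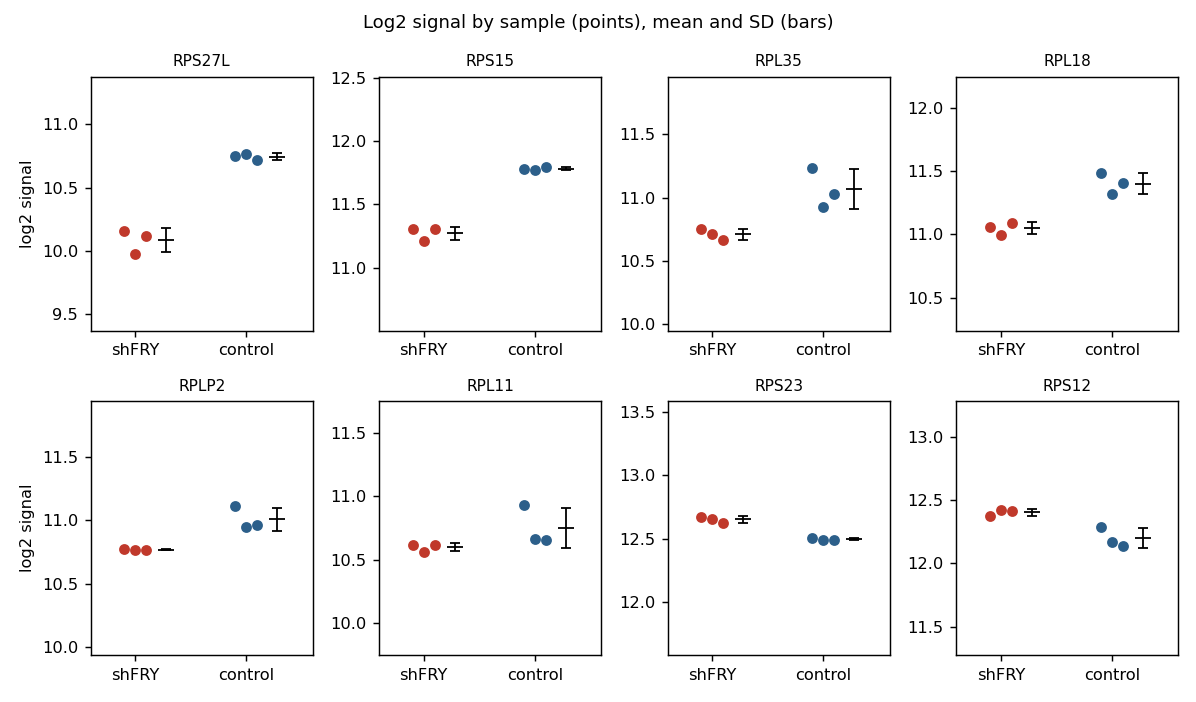
Log2 signal of 8 ribosomal protein genes in each shFRY and control sample (points), with the mean and SD of each group (n = 3); every panel spans the same number of log2 units. The shFRY samples lie below the control samples for RPS27L, RPS15, RPL35, RPL18, RPLP2 and RPL11 and above them for RPS23 and RPS12; only the first 4 passed an adjusted p of 0.05.

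Among the 35 genes of the 60S subunit, 2 were lower and 0 higher. RPL35 stands at the mouth of the polypeptide exit tunnel, near the docking site of factors that meet the new chain. It had 10.75, 10.71 and 10.67 in shFRY samples, against 11.24, 10.93 and 11.03 in control samples. The groups did not overlap, but control sample 1 stood above the other controls. The log2 fold change was -0.35 (SE 0.11, limma adjusted p = 0.0423), and of the 6 fits without 1 sample the call held in that without control sample 2 alone, with values from -0.42 to -0.27 and adjusted p-values from 0.0436 to 0.125. Of 5 genes measured of 8 on the exit tunnel list, RPL35 was lower and 0 were higher, while RPL19, RPL31 and RPL39 differed by 0.03 or less and RPL23A by -0.17 (limma adjusted p = 0.217).

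RPL18, a protein of the 60S body, had 11.06, 10.995 and 11.09 in shFRY samples, against 11.49, 11.32 and 11.40 in control samples. The groups did not overlap. The log2 fold change was -0.35 (SE 0.10, limma adjusted p = 0.0251), and of the 6 fits without 1 sample those without shFRY sample 3 and without control sample 2 kept the call, with adjusted p-values from 0.0386 to 0.0824. Its 2 other probe sets, of low signal, were at 0.01 and 0.24 and were not called. The calls of RPL35 and RPL18 thus lie near the threshold.

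The stalk P proteins recruit the elongation factors to the 60S subunit. RPLP2 had 10.78, 10.76 and 10.77 in shFRY samples, against 11.11, 10.95 and 10.96 in control samples, and its groups did not overlap. The difference of -0.24 did not pass (SE 0.10, limma adjusted p = 0.0996). It passed in 5 alternatives, with adjusted p-values from 0.00633 to 0.0386: in 2 of them the same probe set was used, and in the other 3 its dim probe set entered, with values of -0.57 to -0.89. RPLP1, its partner in the stalk, had 10.88, 10.69 and 10.85 in shFRY samples, against 10.98, 10.66 and 10.78 in control samples. The 2 groups overlapped fully, at a difference of 0.00 (limma adjusted p = 0.991, 95% confidence interval -0.27 to 0.27).

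RPL11 joins RPL5 and the 5S ribosomal RNA in a particle that can bind MDM2 and so stabilise p53. Its signal was 10.62, 10.56 and 10.61 in shFRY samples, against 10.93, 10.66 and 10.66 in control samples. The groups did not overlap, with control sample 1 alone far above the rest, and the difference of -0.15 did not pass (SE 0.11, limma adjusted p = 0.341).

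Germline loss of 1 copy of certain ribosomal protein genes causes Diamond-Blackfan anaemia, a failure of red cell formation. Of the 15 such genes listed, 10 were measured here, and in limma 0 were higher and 0 lower, also at an unadjusted p of 0.05. Their median difference was -0.05. The smallest p was that of RPS27, at -0.20 (limma adjusted p = 0.278), followed by RPL11. RPS19, the gene most often affected in that disease, differed by -0.06 (limma adjusted p = 0.690).

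Paralogs that are restricted to certain tissues in the body were dim. RPL3L, the form of RPL3 in heart and skeletal muscle, had 1.68, 1.68 and 1.79 in shFRY samples, against 1.40, 1.71 and 1.71 in control samples. RPL10L, the testis form of RPL10, had 2.98, 2.95 and 3.10 in shFRY samples, against 3.06, 3.10 and 3.36 in control samples. These values are close to or below the array median, where the array measures a change poorly, and the groups overlapped for both. RPL39L, a form of RPL39 found in testis and in some cancers, had 6.51, 6.58 and 6.53 in shFRY samples, against 6.32, 6.44 and 6.39 in control samples. Its groups did not overlap, at a difference of 0.16 that did not pass (limma adjusted p = 0.243). Tissue-restricted paralogs were not the only dim members: RPL36A of the 60S subunit also had a mean of 8 or less. Its only probe set, 243201_at, had 1.49 ± 0.09 in shFRY samples and 1.55 ± 0.06 in control samples (SD, n = 3 each). The groups overlapped, at a difference of -0.06, and at this level a change in RPL36A could hardly be measured.

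Several paralogs and unusual forms fall outside the symbol rule, and of 5 measured of 6 listed, 1 was higher and 1 lower. RPL22L1, the paralog of RPL22, rose by 0.83 (SE 0.09, limma adjusted p = 0.000300), with 9.61 ± 0.01 in shFRY samples and 8.78 ± 0.04 in control samples (SD, n = 3 each). RPL22 itself had 12.35, 12.39 and 12.41 in shFRY samples, against 12.40, 12.37 and 12.48 in control samples, a difference of -0.03. Its dimmer probe sets were at -0.02, -0.01, 0.03 and 0.23 and were not called. At the last, 221726_at, the shFRY samples lay wholly above the control samples (limma adjusted p = 0.154). Whether the paralogs' changes differ from each other was not tested. RPL26L1, the paralog of RPL26, fell by 0.51 (limma adjusted p = 0.00891). RPL36AL (-0.29), RPL7L1 (-0.20) and FAU (-0.17), which encodes a ubiquitin-like fusion with RPS30, did not pass.

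Several probe sets of 1 gene did not always give the same result. Of the 117 probe sets, 15 (12.8%) passed in the fit over all probe sets, 4 higher and 11 lower, against 23.1% of all probe sets, 10.9% higher and 12.2% lower. Of the 63 with a mean over 11 log2 units, 2 passed (3.17%), against 21.9% of all probe sets that bright. Of the 20 with a mean of 8 to 11, 4 passed (20%), 1 higher and 3 lower. The share of all probe sets in that range was not computed, so this 20% has no background to be read against. Of the 34 with a mean of 8 or less, 9 passed (26.5%), near the 20.8% of all probe sets that dim. RPL35 just missed the threshold in this fit (limma adjusted p = 0.0595).

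The largest contrast was within RPS6, whose product is the substrate of the S6 kinases. The probe set 211690_at had 5.99, 6.02 and 6.06 in shFRY samples, against 1.23, 0.63 and 1.54 in control samples. The groups lay far apart (limma adjusted p = 4.14e-06). The control values are at the bottom of the array's range, so the difference of 4.89 depends on that floor and does not measure a fold change. The 3 bright RPS6 probe sets differed by 0.13, 0.18 and 0.20 and did not pass. The brightest, 209134_s_at, had 12.08, 12.24 and 12.29 in shFRY samples, against 12.11, 12.07 and 12.03 in control samples, and its groups overlapped. The rise at 211690_at passed in all 12 alternatives. What this probe set detects was not tested.

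RPL37, a zinc finger protein of the 60S subunit, had probe sets called in opposite directions. The brightest, 200092_s_at, had 12.52, 12.47 and 12.47 in shFRY samples, against 12.51, 12.47 and 12.50 in control samples, and did not differ beyond its spread. The probe sets 224763_at (0.47) and 224767_at (0.69) were called higher and 224766_at (-0.70) was called lower. For 224767_at the values were 8.17, 8.15 and 8.18 in shFRY samples, against 7.61, 7.47 and 7.36 in control samples. For 224766_at they were 7.25, 7.40 and 6.96 in shFRY samples, against 7.87, 8.11 and 7.75 in control samples. Neither overlapped, and the gene's direction cannot be read from them.

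**Figure D3:**
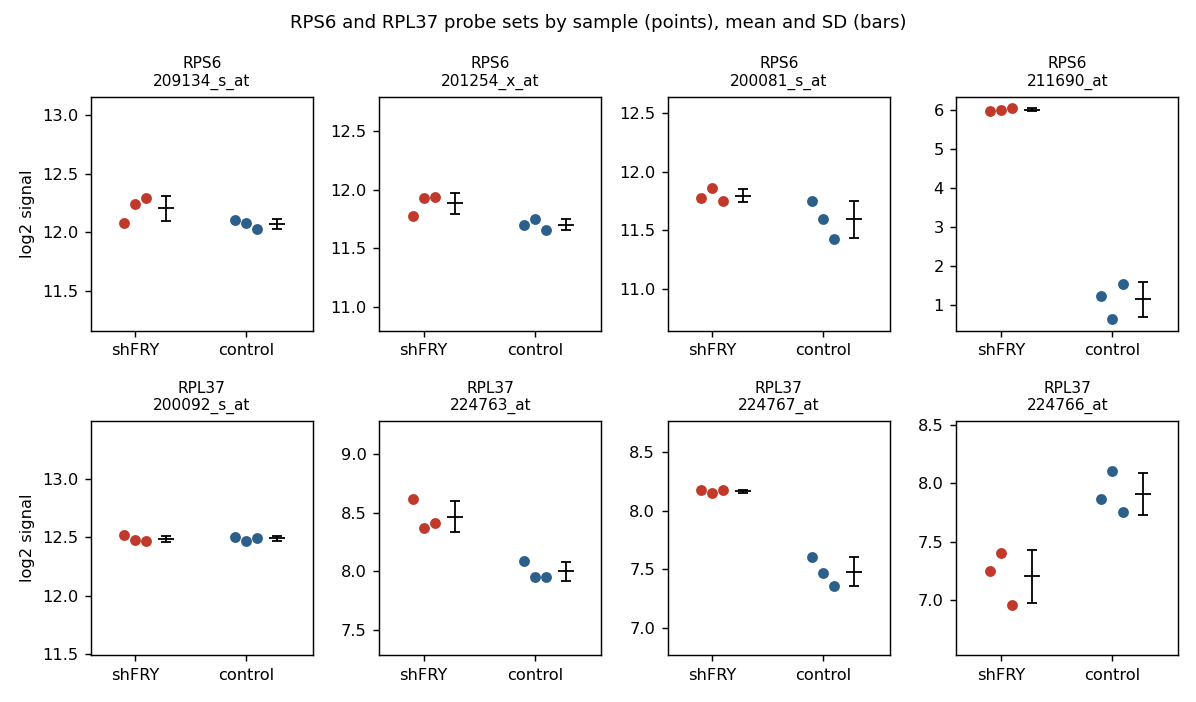
Log2 signal at the 4 RPS6 and the 4 RPL37 probe sets in each shFRY and control sample (points), with the mean and SD of each group (n = 3). The RPS6 probe set 211690_at lies near 6 in shFRY samples and below 2 in control samples while the other 3 differ by 0.13 to 0.20, and the 3 dimmer RPL37 probe sets move in opposite directions.

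Other dimmer probe sets that passed included 217723_x_at of RPS12 (1.07), 235309_at of RPS15A (-0.98), 208903_at of RPS28 (-0.90) and 217670_at of RPLP2 (-0.89). RPL31 had 2, at -0.67 and -0.70. The brightest probe set of each of these genes did not pass. RefSeq lists 1151 pseudogenes of the 56 members, with a median of 13 per member and 95 for RPL23A, and 35 of the 117 probe sets end in _x_at and 38 in _s_at, which can take signal from near-identical sequences. Such copies cannot be told apart from the genes here. RPS27L, RPL39L, RPL10L and RPL3L have 0 listed pseudogenes. Across the members, the log2 fold change and the number of pseudogenes had a Spearman correlation of 0.15 (n = 56 genes on the same 6 arrays).

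**Figure D4:**
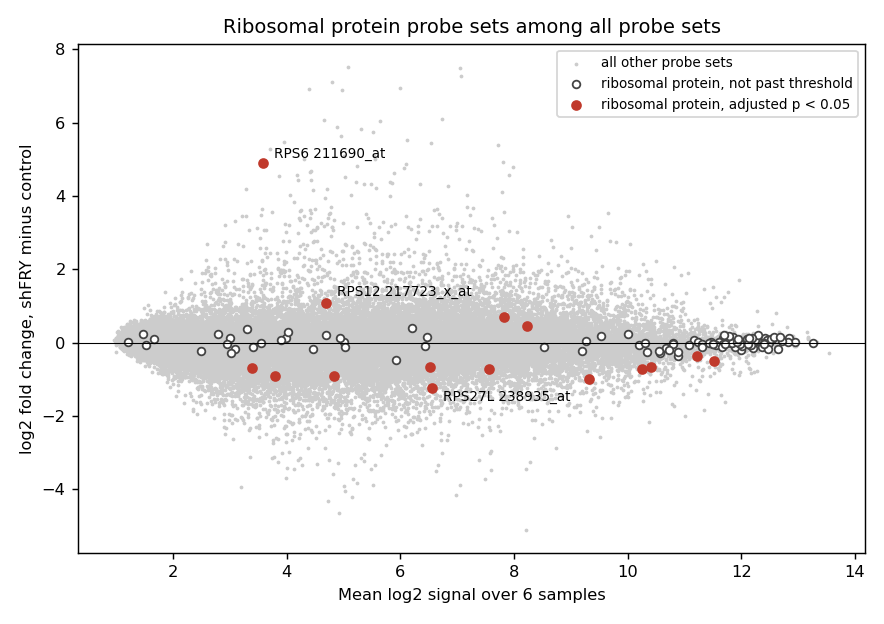
Log2 fold change, shFRY minus control, against the mean log2 signal over 6 samples for the 117 ribosomal protein probe sets (open, or filled where the adjusted p was under 0.05) and all other probe sets (grey). The bright ribosomal protein probe sets lie near 0, and those that passed are mostly dimmer, with 211690_at of RPS6 at 4.89.

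Other genes of protein synthesis were compared in the same fit. Among the elongation factors and other proteins whose mRNAs carry TOP motifs, in limma, of 15 measured of 18 listed, 0 were higher and 0 lower, also at an unadjusted p of 0.05. Their median difference was 0.11, with 11 of 15 above 0. The shFRY samples lay wholly above the control samples for 7 of them (46.7%) and wholly below for 0. Over all 19775 genes they lay wholly above for 4321 and wholly below for 4426, together 44.2%. The smallest p-values were those of EIF4B (0.20, limma adjusted p = 0.168), a helper of the eIF4A helicase, and EEF2 (0.17, limma adjusted p = 0.205), the translocation factor. Of 9 with a promoter in RefSeq, 9 had a TOP start, which the choice of the list largely fixed in advance.

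Of 23 initiation factor genes measured of 24 listed, 7 were higher (30.4%) and 0 lower, at a median of -0.04. Of all genes, 29.8% passed, 13.7% higher and 16% lower. The list was not tested as a set. EIF2S2, the beta subunit of the factor that brings the initiator tRNA, rose by 0.63 (SE 0.09, limma adjusted p = 0.00153). EIF5, its GTPase activator, rose by 0.45, EIF1, which guards start codon choice, by 0.44, and EIF3J, a loosely bound eIF3 subunit, by 0.40. Of 17 genes of RNA polymerase I and pre-rRNA processing measured of 20 listed, 3 were higher and 2 lower (29.4%). WDR12 (0.54), RPF2 (0.46) and NOLC1 (0.42), which act in the nucleolus on pre-ribosomes, were higher. RRS1 (-0.54), which works with RPF2 in loading the 5S particle, and UBTF (-0.38), an RNA polymerase I factor, were lower.

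The proteins of the mitochondrial ribosome are encoded by nuclear genes of their own. Of 75 measured, 28 were lower (37.3%) and 3 higher (4%), together 41.3%, with a median of -0.24. Over all genes, 16% were lower and 13.7% higher, together 29.8%. MRPL27 fell by 1.10 (SE 0.10, limma adjusted p = 0.000148), with 7.30 ± 0.10 in shFRY samples and 8.39 ± 0.07 in control samples (SD, n = 3 each). MRPL16 (-0.97), MRPS12 (-0.91) and MRPS21 (-0.71) were the next largest falls, and MRPS35 (0.67), MRPS10 (0.37) and MRPL33 (0.35) were higher. The median was between -0.30 and -0.17 in every alternative, but the count depended on single samples. It was 15 lower and 3 higher without shFRY sample 2, where 24.8% of all genes passed in either direction. Without control sample 1 it was 17 lower and 1 higher, and without control sample 3 it was 15 lower and 1 higher. In each of these fits 22.8% of all genes passed. The difference between this list and the cytoplasmic ribosomal protein genes was not tested.

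**Figure D5:**
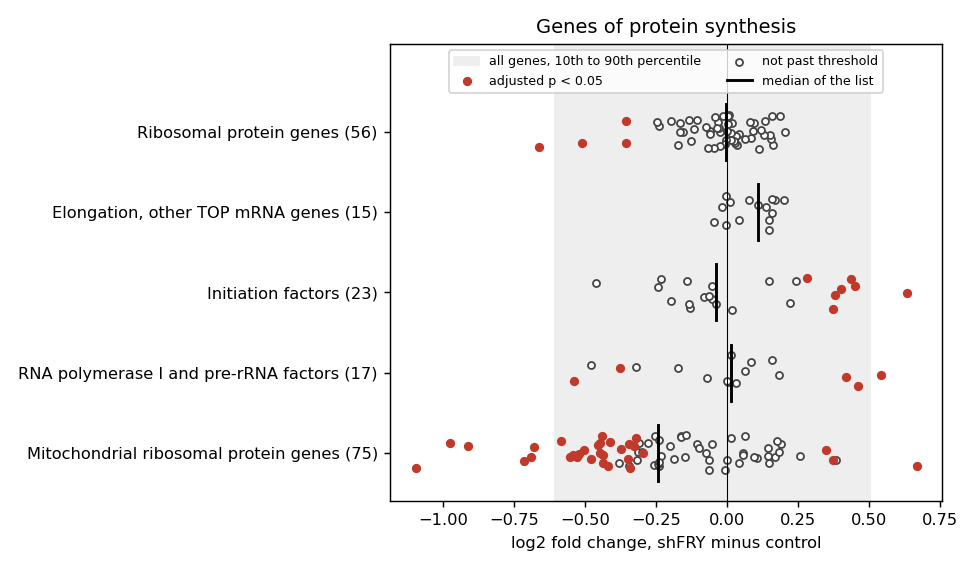
Log2 fold change, shFRY minus control, of single genes in 5 lists of protein synthesis (number of genes in brackets); filled points passed an adjusted p of 0.05, black bars are medians and the grey band holds the 10th to 90th percentile of all genes. The 56 ribosomal protein genes sit close to 0. Of the 75 mitochondrial ribosomal protein genes, 28 (37.3%) are filled on the negative side and 3 on the positive side, against 16% of all genes lower and 13.7% higher.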

How the data were processed

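Biotin-labelled cDNA of 6 total RNA samples was hybridised to 1-colour arrays. The submitters' processing notes name RMA for the deposited log2 values, with no version or settings given in the sources used here. This method usually aligns the arrays' distributions and shrinks differences at low signal. The values were taken unchanged, and signals of different probe sets are not comparable as transcript amounts. Probe sets were named by a platform annotation, with symbols updated through Entrez IDs to RefSeq (GRCh38.p14). Of 54675 probe sets, 41091 named 1 gene. Those naming several genes or none were left out, among them 64 that name a ribosomal protein gene beside others.

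shFRY was compared with control in limma 3.58.1 (R 4.3.3; lmFit and eBayes, 4 residual degrees of freedom) over 19775 genes, 1 probe set per gene, and over 54613 probe sets other than controls, with Benjamini-Hochberg adjustment over each whole table. The fit was tested on simulated data. The members and lists were chosen with earlier results of these data known. Genes given in every sample are members past the threshold (up to 12 each way), measured paralogs, stalk and 5S particle proteins, members with opposed probe sets, and FRY at 1 probe set. For other lists up to 4 genes past the threshold are named, or 2 with the smallest p. RPS12, RPS23, RPS6, RPS3, RPL22 and other members named beyond this were chosen after their values were seen. Precision is limited by the 3 arrays per group. The closing section gives the alternatives.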

Additional observations from a re-analysis of the deposited data

How the results depend on the processing

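Over the alternatives (median centring, quantile normalization, variance trend, the brighter genes by mean, mean or median of a gene's probe sets, no _x_at or _s_at probe sets, array weights, replicate block, beta-actin covariate, and each sample left out), the median log2 difference of the members stayed between -0.04 and 0.03. The members called lower were 9 with the variance trend, 5 among the brighter genes (53 members), 5 with the mean of probe sets, 6 with their median, 6 without _x_at and _s_at probe sets, 2 with the replicate block, 0 with the beta-actin covariate (where 5.19% of all genes passed), 2 among the 43 with a mean over 11 and 2 to 4 without 1 sample. Those called higher were 4 with the trend and 2 with the mean, the median or without _x_at and _s_at probe sets (34 members). In those 3 settings 12.5%, 14.3% and 23.5% of members passed, against 29.7%, 27.7% and 25.7% of all genes, so without _x_at and _s_at probe sets the members' share was near the background. Among the brighter genes 9.43% of members passed, against 56% of all genes so bright. With the replicate block 3.57% passed, against 27% of all genes. Without 1 sample the shares were 3.57% to 7.14% of members and 22.8% to 29.2% of all genes. RPLP2 passed with the trend, among the brighter genes, with the mean or median of probe sets and without _x_at and _s_at probe sets. RPL18 was at 0.00881 with the median of probe sets, and RPL37 at 0.36 there and 0.47 without _x_at and _s_at probe sets: a dimmer probe set enters in each case. RPS15 was at -0.26 with the mean or median and -0.01 without _x_at and _s_at probe sets, for the same reason. RPS27L failed with the covariate alone (-0.61, adjusted p = 0.137). Of member probe sets, 9 were higher and 20 lower with the trend, and 1 and 0 with the covariate. The shares of all probe sets in these fits are not given here, so these counts have no background. FRY at 204072_s_at missed the threshold with the block (-0.75, adjusted p = 0.0522) and the covariate (-0.38), and was -0.91 to -0.57 without 1 sample. Mitochondrial ribosomal protein genes called lower were 10 of 44 without _x_at and _s_at probe sets (4 higher), 1 with the covariate (0 higher) and 15 to 27 without 1 sample (1 to 3 higher). In those settings 25.7%, 5.19% and 22.8% to 29.2% of all genes passed in either direction.

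The numbers in the sample titles are not described as a pairing, and deviations of samples sharing one correlated at -0.0002, -0.0024 and 0.0068, so the paired fit is only an alternative. With the replicate block, RPL35 (adjusted p = 0.0622) and RPL18 (0.0512) missed the threshold. The covariate is nearly confounded with the group, so RNA length and group can hardly be told apart in 6 arrays.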

Other observations

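Some regulators of ribosomal protein synthesis passed the test; 29.8% of all genes did. In the MYC network, whose factors bind many ribosomal protein gene promoters, 3 of 7 measured genes (42.9%) were higher and 0 lower. The shares over all genes were 13.7% higher and 16% lower. MYC had 11.24 ± 0.03 in shFRY samples and 10.05 ± 0.11 in control samples (SD, n = 3 each), a rise of 1.19 (SE 0.10, limma adjusted p = 9.21e-05). MXD1, which competes with MYC for the partner MAX, rose by 2.71, and MNT, another such competitor, by 0.38. Among 11 regulators of TOP mRNA translation and mTORC1, 1 was higher and 1 lower (18.2%): the translation inhibitor genes EIF4EBP1 (1.12) and EIF4EBP2 (-1.16) differed in opposite directions. LARP1, which binds TOP mRNAs, differed by -0.21 (limma adjusted p = 0.127).

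Of 3 genes measured of 4 listed in the pathway in which RPL5 and RPL11 act on MDM2, 3 were higher and 0 lower. Among all genes, 13.7% were higher and 16% lower, and the list is too small to read as a set. They were CDKN1A (0.78), which encodes the cell cycle inhibitor p21, MDM4 (0.75) and MDM2 (0.46). RPS27L, which p53 induces in human cells, was lower by 0.66 in the same samples. Whether these differences are linked was not tested.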
